A study of Mus musculus with 4 samples.

Results

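The genes of the integrated stress response and the unfolded protein response were followed with and without decitabine in BR5FVB1-Akt, a line of mouse ovarian cancer cells. The list held 40 genes: sensors of stress, the transcription factors those sensors control, targets of the factor ATF4, and the chaperone and degradation genes of the endoplasmic reticulum (ER). A gene was represented by the array row that carried its symbol alone, and by the row with the highest mean signal where it had several. Of the 40 genes, 38 had such a row, among 22180 genes tested. Aars and Pdia4 lay on rows that carry other symbols too and were not analysed here.

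The study had 2 control samples, grown without the drug, and 2 samples given 10 uM decitabine for 72 h, each on 1 Affymetrix Mouse Gene 2.0 ST array of total RNA. Both groups were grown in DMEM with serum and antibiotics. Decitabine is a cytidine analogue; once in replicated DNA, it binds DNA methyltransferases covalently and depletes them. The labels give the line and the tumour type, and no genotype, clone number or drug vehicle. They call the samples biological replicates without saying whether these were separate cultures, so every p-value measured the spread between these 4 arrays, which may be technical. In bulk RNA, fewer expressing cells and less RNA per cell cannot be told apart.

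In the integrated stress response, kinases such as PERK phosphorylate the translation factor eIF2, which slows protein synthesis as a whole while favouring translation of ATF4. ATF4 then induces genes for amino acid uptake and synthesis, for charging of tRNAs, and for further transcription factors such as CHOP. In the unfolded protein response, the ER membrane proteins PERK, IRE1 and ATF6 sense misfolded protein, and the IRE1 product XBP1 and cleaved ATF6 induce ER chaperones and the machinery of ER-associated degradation. ATF4 is controlled largely by translation, XBP1 by splicing and ATF6 by proteolysis, and none of these steps is read by an array of total transcript. ATF4 targets are set here against chaperone and ER-degradation genes as indirect readouts of 2 branches, whose own activity was not measured.

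The sequence upstream of the start sites differed between these branches. Of the 40 genes, 35 matched a RefSeq promoter (GRCm38.p6), and the 250 bases before the start were searched on both strands. The motifs were the ATF4 composite element TGATGNAA, the ER stress response element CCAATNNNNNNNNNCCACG, its second form ATTGGNCCACG, and the XBP1 and ATF6 element TGACGTGG, whose reverse strand can share CCACG with the 2 before it. The ATF4 composite element was found for 8 of 17 ATF4 targets (47.1%), for 1 of 13 chaperone and ER-degradation genes (7.69%), and for 578 of 16990 genes on the arrays with a promoter (3.4%). The ER stress response element was found for 0 of the 17, for 6 of the 13 (46.2%) and for 27 of the 16990 (0.159%). The second form was found for Herpud1 alone among the members, and the XBP1 and ATF6 element for none of the 35. A match describes letters in this window and does not show that a factor binds.

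The following stretches, written 5′ to 3′ along the gene's strand with the motif in capitals, carry the ATF4 composite element, in either direction, beside members whose values are given further on. Slc7a11 has 2 copies, in opposite directions.
Atf3, chr1:191183416-191183463, minus strand: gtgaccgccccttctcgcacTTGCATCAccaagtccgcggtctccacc
Nupr1, chr7:126625553-126625600, minus strand: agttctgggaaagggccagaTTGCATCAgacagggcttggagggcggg
Chac1, chr2:119351029-119351076, plus strand: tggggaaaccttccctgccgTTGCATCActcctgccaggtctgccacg
Asns, chr6:7693210-7693252, minus strand: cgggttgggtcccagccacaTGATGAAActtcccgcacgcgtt
Slc7a11, chr3:50443652-50443699, minus strand: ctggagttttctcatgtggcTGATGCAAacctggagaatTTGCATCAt

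The next stretches carry an ER stress response element and stand for the other branch. Herpud1 is shown with both its second-form element and its ATF4 composite element, since no other chaperone or degradation gene with a promoter here had the latter.
Hspa5, chr2:34772005-34772063, plus strand: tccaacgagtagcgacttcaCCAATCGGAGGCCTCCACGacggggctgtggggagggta
Creld2, chr15:88819500-88819558, plus strand: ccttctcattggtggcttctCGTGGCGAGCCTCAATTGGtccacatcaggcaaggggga
Pdia6, chr12:17266471-17266529, plus strand: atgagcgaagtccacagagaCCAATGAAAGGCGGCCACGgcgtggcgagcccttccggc
Herpud1, second form, chr8:94386357-94386407, plus strand: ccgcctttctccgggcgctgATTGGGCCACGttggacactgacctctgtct
Herpud1, composite element, chr8:94386297-94386344, plus strand: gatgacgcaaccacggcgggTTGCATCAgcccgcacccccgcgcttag

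**Figure D1:**
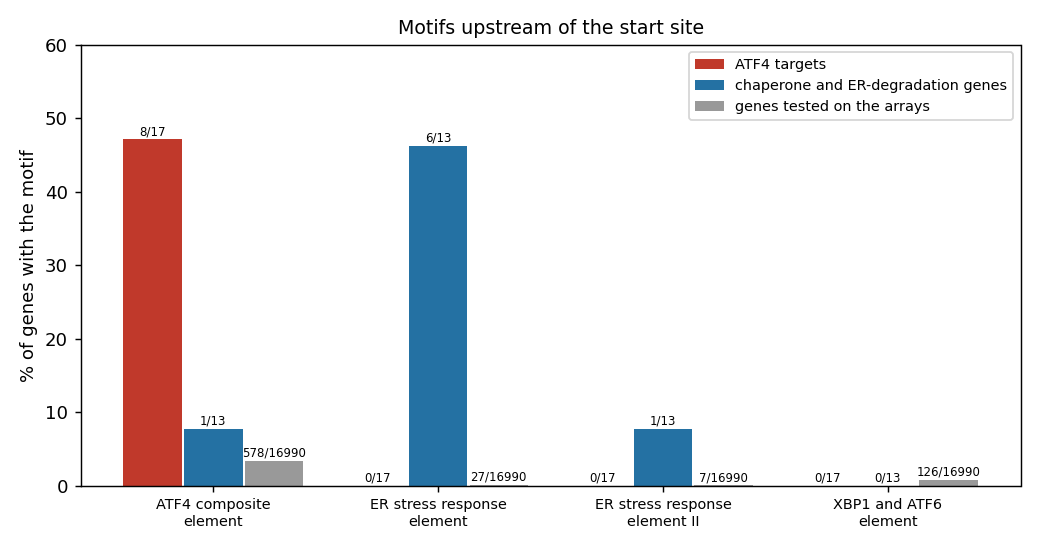
Share of genes whose 250 bases upstream hold each motif (vertical axis, percent of genes with a RefSeq promoter), for ATF4 targets, chaperone and ER-degradation genes and all genes on the arrays, with the counts above the bars. The ATF4 composite element stands at 47.1% in the first list and the ER stress response element at 46.2% in the second.

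The arrays were alike in scale, with medians over all rows from 4.60 to 4.66, and Pearson's r across genes, which are not independent replicates, was 0.995 between controls and 0.993 between treated arrays. Actb was at 0.11 ± 0.11 (log2 fold change ± SE) and Gapdh at 0.0044 ± 0.095. By signal, the epithelial markers ran from the 20.6th percentile of all genes (Pax8) to the 99.0th (Wt1), with Epcam at the 42.5th, and the fibroblast markers from under the 24.7th (Lum, with Fap at that percentile) to the 99.8th (Dcn). Signals of different probes cannot be set against each other, so these values do not settle the labelled cell type. At an unadjusted p under 0.05 in limma, 4 of 13 epithelial markers were higher and 1 lower, fibroblast markers gave 1 of 9 in each direction, and 2 of 8 leukocyte and 2 of 7 endothelial markers were higher. Over all genes these shares were 7.34% higher and 6.97% lower. Summed over the list, on the log2 scale, leukocyte markers were at 7.63 to 7.68 on the control arrays and 7.95 to 7.96 on the treated arrays, endothelial markers at 7.28 to 7.36 and 7.45 to 7.49, fibroblast markers at 13.07 to 13.08 and 13.02 to 13.04, and epithelial markers at 11.70 to 11.72 and 11.73 to 11.76. In the leukocyte sum the brightest marker, Cd68, weighs most, with means of 6.60 in controls and 7.05 in treated cells. Of the 8 leukocyte markers, 5 were above 0 and 3 below. No marker was at 0, since the values are logs with no detection level, and Ptprc, the pan-leukocyte gene, was at the 14.7th percentile. Their part in the results on stress genes was not tested.

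The comparison asked which stress response genes differed after decitabine. Both treated arrays lay above both controls for 16 of 18 measured ATF4 targets, with the largest differences at Slc7a11, Ddit3, Nupr1 and Mthfd2, and for 5 of 14 chaperone and ER-degradation genes, with 5 others below. Of genes above the median level, 28.6% lay above in this way and 30% below. None of the 38 members passed limma's test with Benjamini-Hochberg adjustment over all genes at 0.05, a threshold that 0.144% of all genes passed (0.131% higher and 0.0135% lower). The smallest adjusted p among them was 0.101, for Ddit3. At an unadjusted p under 0.05, 11 of the 38 were higher, against 7.34% of all genes, and 1 was lower, against 6.97%. All 38 had a signal above the median of all genes, and among the 11090 genes above it the shares were 9.66% and 10.2%.

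The higher 11 were Atf3, Ddit3 and Nupr1, the amino acid and one-carbon genes Asns, Shmt2, Mthfd2, Slc7a11, Slc3a2 and Slc7a5, the synthetase gene Wars, and the sensor gene Ern1. The lower one was the chaperone-associated gene Sdf2l1. With any 1 array left out, Atf3, Ddit3, Nupr1, Mthfd2, Slc7a11 and Slc7a5 kept an unadjusted p under 0.05 in limma. Slc3a2 kept it in 3 of the 4 such fits, Ern1 and Sdf2l1 in 1, and Asns, Shmt2 and Wars in 0. Shmt2 and Wars also lost it when arrays were centred on their medians and when the replicate number was a block. Both treated arrays lay above both controls for 24 members, against 23.4% of all genes, and below for 8, against 22.5%. Among genes above the median level these shares were 28.6% and 30%. When limma's variance model was given a trend with intensity, which lends bright genes a smaller variance, the same 12 genes passed the adjusted threshold, 11 higher (3.68% of all genes, and 6.91% of those above the median level) and 1 lower (3.6% and 7.08%). Leaving out the first control array reduced that count to 1, Mthfd2, and leaving out the other control array reduced it to 4. It was lower too without decitabine replicate 2, and unchanged without decitabine replicate 1. The calls thus depended on the variance model and on which arrays entered. With 1 array left out, the spread within groups came from the other group's pair alone.

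**Figure D2:**
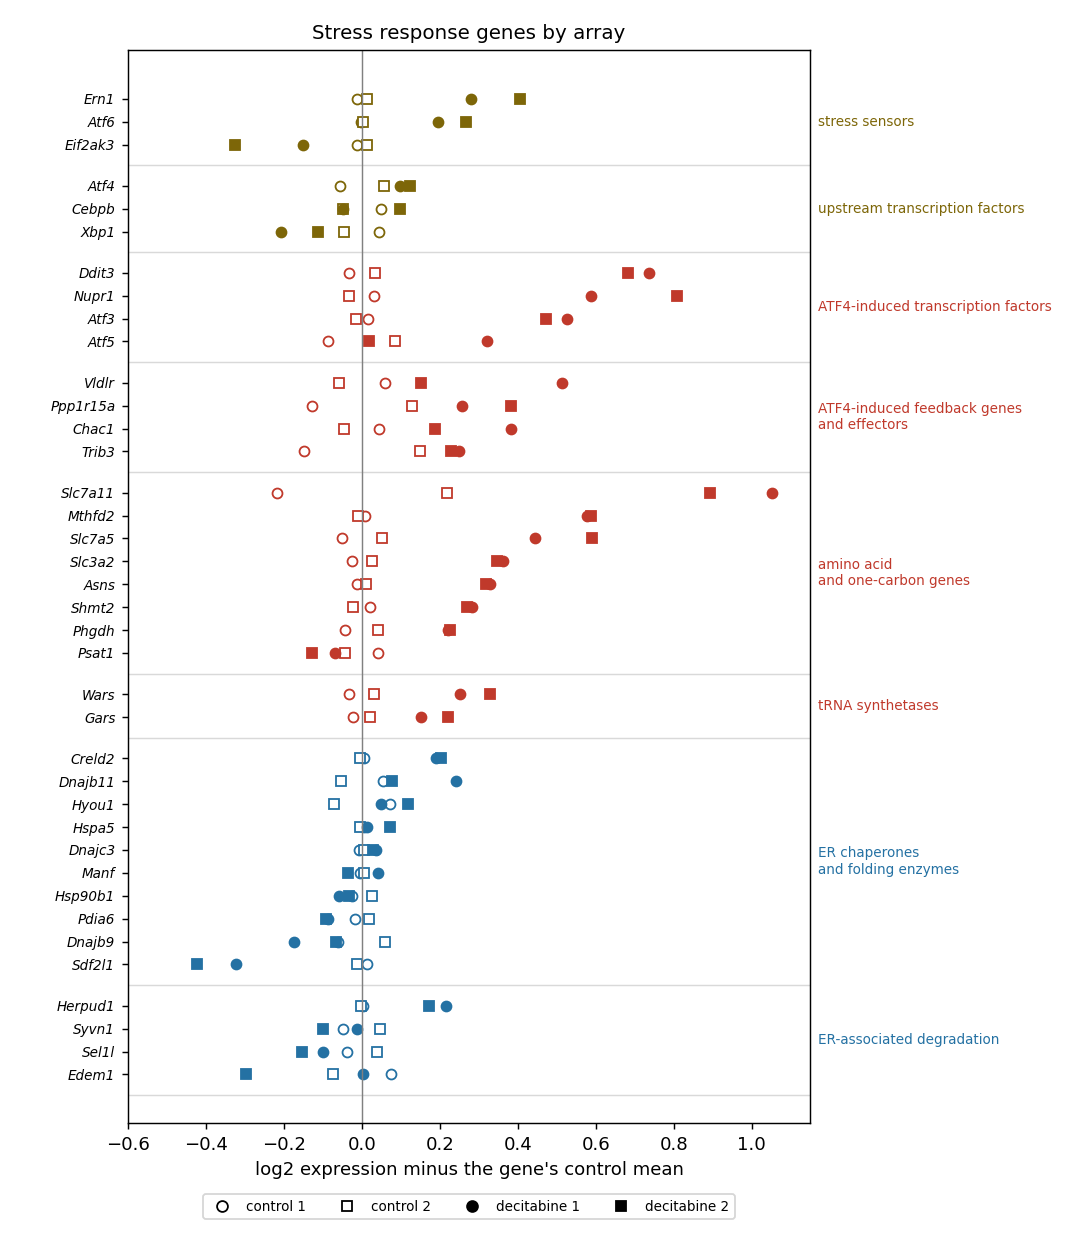
Log2 expression of each of the 38 measured members on each array, minus the mean of its 2 control arrays (horizontal axis), grouped by role; open symbols are control arrays and filled symbols decitabine arrays, circles replicate 1 and squares replicate 2. Filled symbols lie to the right of open ones for 16 of the 18 ATF4 targets (red) and for 5 of the 14 chaperone and ER-degradation genes (blue).

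Among the transcription factor genes that ATF4 induces, 3 of 4 were higher at an unadjusted p under 0.05 in limma and 0 lower. Over all genes 7.34% were higher and 6.97% lower at that p, and above the median level 9.66% and 10.2%. The median log2 fold change of the 4 was 0.60. Ddit3 encodes CHOP, a factor that links lasting ER stress to cell death. Its log2 level was 6.15 and 6.22 on the control arrays and 6.92 and 6.87 on the treated arrays. The groups did not overlap, and the log2 fold change was 0.71 ± 0.10 (SE, 2 arrays per group), or 1.64-fold, with an adjusted p of 0.101 in limma.

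Nupr1 encodes a small stress-induced chromatin protein. It stood at 7.04 and 6.97 without the drug and at 7.59 and 7.81 with it. The treated arrays were the less alike pair, yet both were well above the controls, and the difference was 0.70 ± 0.12, or 1.62-fold (limma, adjusted p = 0.135). Atf3, an early stress-induced factor that can repress transcription, had levels of 7.01 and 6.97 in controls and 7.52 and 7.46 in treated cells. Each pair was tight, and the log2 fold change was 0.50 ± 0.096 (limma, adjusted p = 0.154). Atf5, whose translation is controlled much like that of ATF4, had overlapping arrays and a difference of 0.17 ± 0.14.

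The feedback genes and effectors downstream of ATF4 were each higher on both treated arrays, by smaller amounts, and 0 of 4 reached an unadjusted p under 0.05 in limma. Of all genes, 23.4% lay above in this way, and 28.6% of those above the median level. The shares higher at that p were 7.34% and 9.66%. Ppp1r15a, whose product GADD34 brings a phosphatase to eIF2 and so ends the response, was at 0.32 ± 0.13, with 5.81 and 6.07 in controls and 6.19 and 6.32 in treated cells. Chac1, which degrades glutathione, was at 0.29 ± 0.12, and Trib3, a pseudokinase that restrains ATF4 and CHOP, at 0.24 ± 0.13. Vldlr, a lipoprotein receptor that ATF4 induces, was at 0.33 ± 0.15, and its treated arrays, at 6.62 and 6.26, differed from each other by more than the lower of them did from the controls. The 95% interval of each of these differences included 0.

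Among the role lists of members, the amino acid and one-carbon genes held the widest range. Of 8, 6 were higher at an unadjusted p under 0.05 and 0 were lower, with a median of 0.34. Of genes above the median level, 9.66% lay higher at that p and 10.2% lower. Of all genes, 7.34% lay higher and 6.97% lower. Slc7a11, the cystine importer that supplies glutathione synthesis, had the largest difference of any member. Its levels were 5.24 and 5.68 in controls and 6.51 and 6.35 in treated cells. The control arrays lay far apart, but both stayed below the treated ones, and the log2 fold change was 0.97 ± 0.17, or 1.96-fold (limma, adjusted p = 0.142). A second, dimmer Slc7a11 row, at 3.03 to 3.08 in controls and 2.87 to 3.23 in treated cells, showed no such difference, and the rows averaged gave 0.49.

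Slc3a2 and Slc7a5 encode the heavy and light chains of the exchanger that brings large neutral amino acids into the cell, and Slc3a2 is also the partner of the Slc7a11 protein. Slc3a2 was at 10.19 and 10.24 in controls and 10.58 and 10.56 in treated cells, a difference of 0.35 ± 0.096 (limma, adjusted p = 0.234). Slc7a5 was at 9.51 and 9.61, and then 10.00 and 10.15, a difference of 0.52 ± 0.11 (limma, adjusted p = 0.175). All 3 transporter genes were thus higher on each treated array than on each control array.

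Mthfd2 and Shmt2 encode mitochondrial enzymes of the folate pathway that carries one-carbon units from serine. Mthfd2 was the most reproducible of the larger differences, with 8.13 and 8.11 in controls and 8.69 and 8.71 in treated cells. That is a log2 fold change of 0.58 ± 0.095 (limma, adjusted p = 0.126). Shmt2 was at 10.47 and 10.43 in controls and 10.73 and 10.72 in treated cells, a difference of 0.28 ± 0.095 (limma, adjusted p = 0.309). Asns, the asparagine synthetase and a widely used readout of ATF4, was at 8.82 and 8.85 in controls and 9.16 and 9.15 in treated cells, a difference of 0.32 ± 0.095 (limma, adjusted p = 0.249).

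The serine synthesis genes differed less. Phgdh, the first enzyme of the pathway, was at 0.22 ± 0.098 with both treated arrays above, while Psat1, the next, was at −0.099 ± 0.10 and was the 1 ATF4 target below its controls. Neither reached an unadjusted p under 0.05 in limma, and a difference between these genes and the others was not tested. Of the tRNA synthetase genes, Wars, which charges tryptophan tRNA and is also induced by interferon-gamma, was at 8.80 and 8.86 in controls and 9.08 and 9.16 in treated cells, a difference of 0.29 ± 0.099 (limma, adjusted p = 0.305). Gars, for glycine, was at 0.19 ± 0.098 with non-overlapping arrays.

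Among the ATF4 targets, genes with and without the composite element printed above were both mostly higher. The 7 measured targets with the element had a median log2 fold change of 0.33, and 7 of 7 were positive. The 9 with a promoter but without the element had a median of 0.28, with 8 of 9 positive. Over all 578 genes on the arrays with the element the median was 0.021, with 316 above 0 and 262 below. The 6 chaperone and ER-degradation genes with an ER stress response element had a median of −0.0070, with 3 positive and 3 negative.

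**Figure D3:**
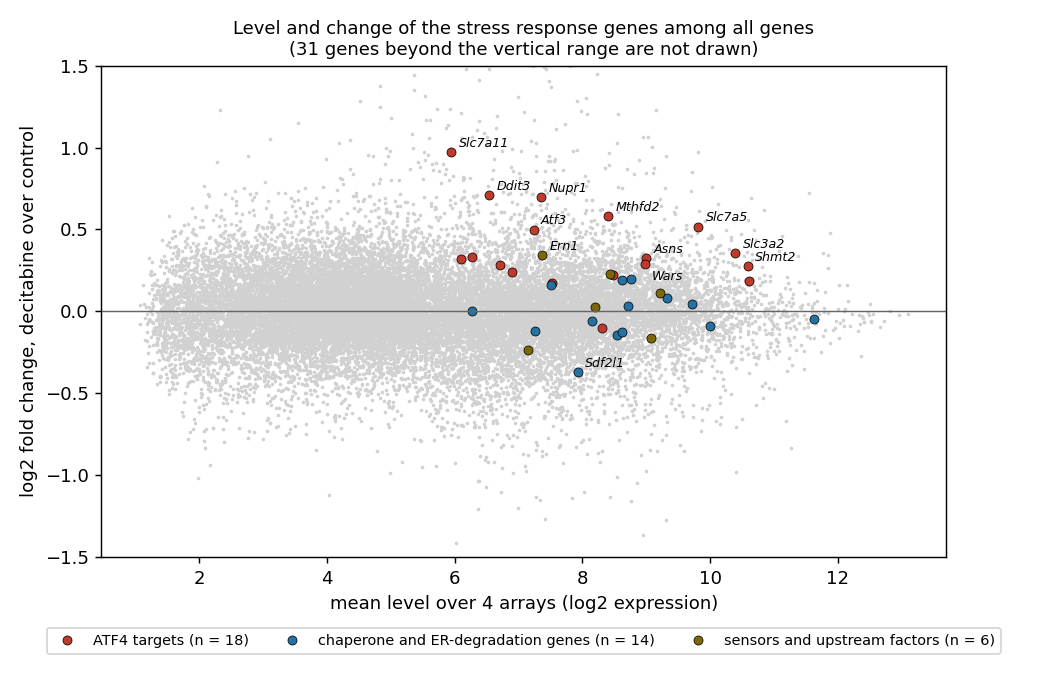
Log2 fold change of decitabine over control (vertical axis) against the mean log2 level over the 4 arrays (horizontal axis) for all genes (grey) and the 38 members (coloured by list); members with an unadjusted p under 0.05 are named. The named genes run from Sdf2l1 at −0.37 to Slc7a11 at 0.97, and 31 genes beyond 1.5 in either direction are not drawn.

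The sensor genes and the factors upstream differed in both directions. Ern1, which encodes the kinase and nuclease IRE1, was at 7.19 and 7.21 in controls and 7.48 and 7.61 in treated cells, a log2 fold change of 0.34 ± 0.10 (limma, adjusted p = 0.255). Atf6 was at 8.32 and 8.33, and then 8.52 and 8.59, a difference of 0.23 ± 0.097 (limma, adjusted p = 0.377). Eif2ak3, the gene of PERK, lay the other way, at 7.26 and 7.29 in controls and 7.12 and 6.95 in treated cells, a difference of −0.24 ± 0.11 (limma, adjusted p = 0.413) that was −0.15 without decitabine replicate 2. For each of the 3 sensor genes the groups did not overlap, and of the 3 Ern1 alone reached an unadjusted p under 0.05 in limma. Over all genes, 23.4% had both treated arrays above both controls and 22.5% had both below. Above the median level these shares were 28.6% and 30%, so non-overlap was common.

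Atf4 itself was nearly level, at 9.10 and 9.21 in controls and 9.25 and 9.28 in treated cells. Its log2 fold change of 0.11 ± 0.10 had a 95% interval from −0.15 to 0.37 (limma, adjusted p = 0.685). It was 0.054 without control replicate 1 and 0.17 without control replicate 2. Xbp1 was at 9.20 and 9.11, and then 8.95 and 9.05, a difference of −0.16 ± 0.10 (limma, adjusted p = 0.549). Cebpb, which encodes a factor that pairs with ATF4 at composite elements, was at 0.025 ± 0.11, with overlapping arrays.

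The ER chaperones and folding enzymes lay in both directions. Of 10 measured genes, 4 lay above their controls on both treated arrays and 4 below. Among genes above the median level, 28.6% lay above in this way and 30% below. Of the 10, 0 were higher and 1 was lower at an unadjusted p under 0.05, against 9.66% and 10.2% of genes above the median level. The median log2 fold change of the 10 was 0.018. Hspa5 encodes BiP, the main ER chaperone, which holds the sensors inactive until misfolded protein draws it away. Its levels were 9.71 and 9.70 in controls and 9.71 and 9.77 in treated cells. The log2 fold change of 0.043 ± 0.096 had a 95% interval from −0.20 to 0.29 (limma, adjusted p = 0.889), and was 0.013 to 0.072 with 1 array left out, lowest without decitabine replicate 2.

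Hsp90b1, the ER form of HSP90, was at −0.046 ± 0.096, and the disulfide isomerase gene Pdia6 at −0.089 ± 0.095. The co-chaperone genes Dnajc3, Dnajb9 and Dnajb11 were at 0.032 ± 0.095, −0.12 ± 0.11 and 0.16 ± 0.11. Hyou1, a nucleotide exchange factor for BiP, was at 0.083 ± 0.11, and Manf, a secreted ER stress protein, at 0.0035 ± 0.098. Creld2, which is induced by ER stress and secreted, was higher on both treated arrays at 0.20 ± 0.095.

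Sdf2l1 encodes a partner of ER-resident J-domain co-chaperones. It went against the ATF4 targets, at 8.12 and 8.10 in controls and 7.79 and 7.69 in treated cells. Both treated arrays were clearly below both controls, and the log2 fold change was −0.37 ± 0.10, or 0.772-fold (limma, adjusted p = 0.231). Its promoter window held none of the 4 motifs.

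Of the 4 genes of ER-associated degradation, 0 reached an unadjusted p under 0.05 in limma in either direction, and their median was −0.091. Over all genes 7.34% were higher and 6.97% lower at that p, and above the median level 9.66% and 10.2%. Herpud1, an ER membrane protein of the degradation complex, was the 1 member of this list above 0, at 0.19 ± 0.095, with 8.53 and 8.52 in controls and 8.74 and 8.70 in treated cells. Sel1l and Syvn1, the adaptor and the ubiquitin ligase at the core of the complex, were at −0.13 ± 0.099 and −0.056 ± 0.10. Edem1, which marks misfolded glycoproteins for removal, was at −0.15 ± 0.14, and its treated arrays, at 8.62 and 8.32, straddled a control array. A second, dimmer Edem1 row was at −0.023.

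Set side by side, the 18 ATF4 targets had a median log2 fold change of 0.32 and the 14 chaperone and ER-degradation genes one of −0.021, a difference of 0.34, while all 22180 genes had a median of 0.0040. Of the ATF4 targets, 17 were above 0, 16 had both treated arrays above both controls, and 10 were higher at an unadjusted p under 0.05. Of the chaperone and ER-degradation genes, 7 were above 0, 5 had both treated arrays above and 5 both below, and 0 were higher at that p. Among genes above the median level, 28.6% had both treated arrays above and 30% both below. Of those genes, 9.66% lay higher at that p and 10.2% lower. With each gene centred on its control mean, the median of the ATF4 targets was −0.024 and 0.024 on the control arrays and 0.35 and 0.32 on the treated arrays. The median of the chaperone and ER-degradation genes was −0.0011 and 0.0011, and then 0.0080 and −0.034. Each treated array by itself thus showed the same separation. No p-value is given for these medians, since the lists were chosen with earlier results of these data known.

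**Figure D4:**
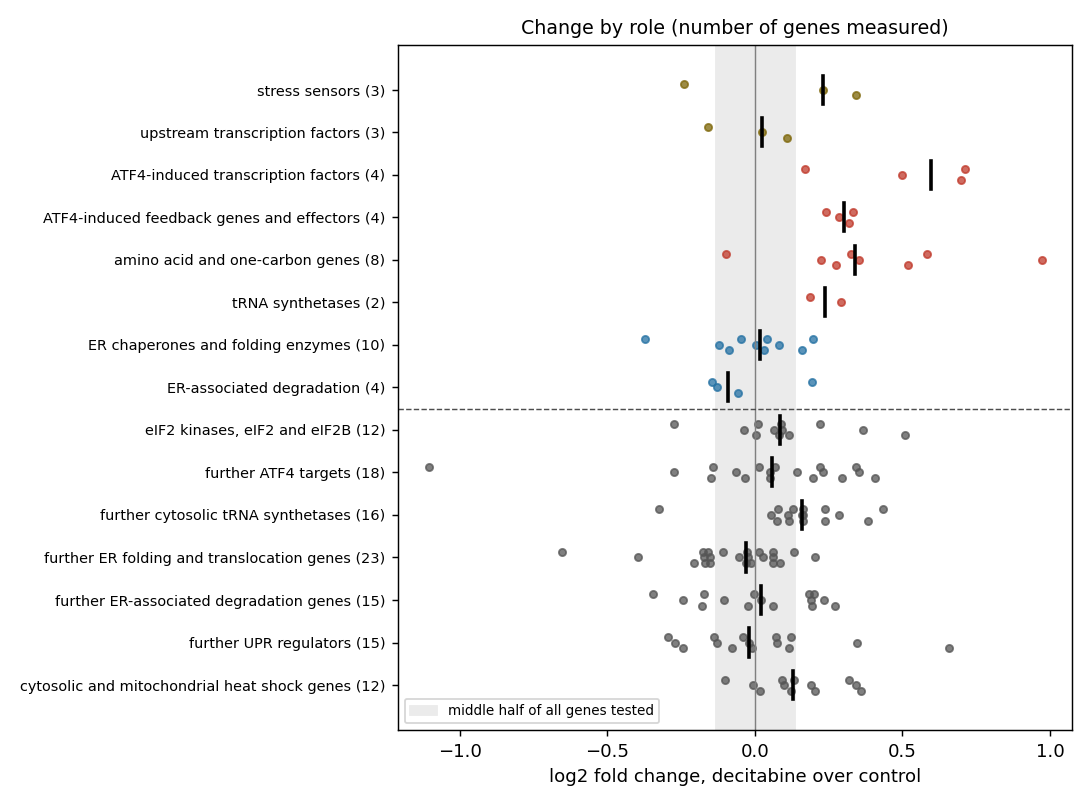
Log2 fold change of decitabine over control (horizontal axis) for each gene of the 8 role lists of members (above the dashed line) and of 7 lists of other pathway genes (below it), with the number measured in brackets and the list median as a black bar; the grey band spans the quartiles of all genes tested, −0.13 to 0.14. The 4 lists of ATF4 targets have medians of 0.24 to 0.60, and the chaperone and degradation lists have medians of 0.018 and −0.091.

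Other genes of the same pathways, taken from lists of their own, gave a less even picture for ATF4. At an unadjusted p under 0.05, 4 of 18 further ATF4 targets were higher and 2 were lower, and the median was 0.060. For this and the lists below, the shares at that p were 7.34% higher and 6.97% lower over all genes. Above the median level they were 9.66% and 10.2%. Slc7a1, a transporter of cationic amino acids, was at 8.48 and 8.51 in controls and 8.91 and 8.90 in treated cells, a log2 fold change of 0.41 ± 0.095 (limma, adjusted p = 0.197). Ddit4, an inhibitor of mTOR that ATF4, p53, hypoxia and glucocorticoids can induce, was at 8.60 and 8.56, and then 7.61 and 7.34, a difference of −1.11 ± 0.13 or 0.465-fold (limma, adjusted p = 0.0762). It was the largest difference in either direction among the members and these lists, and opposite in sign to most ATF4 targets.

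The other cytosolic tRNA synthetase genes were mostly above 0 by small amounts. Of 16, 15 were above 0, as were 11254 of all 22180 genes. For 12, both treated arrays lay above both controls, as for 23.4% of all genes and 28.6% of those above the median level. At an unadjusted p under 0.05 in limma, 2 were higher and 1 lower, and the median was 0.16. Nars, for asparagine, was at 0.43 ± 0.10, and Qars, for glutamine, was the exception at −0.32 ± 0.099. Of 12 genes of the eIF2 kinases, eIF2 and its exchange factor eIF2B, 2 were higher and 0 lower, with a median of 0.085. These were Eif2ak2, the RNA-activated and interferon-induced kinase PKR, at 0.51 ± 0.12, and the eIF2B subunit gene Eif2b3 at 0.37 ± 0.11. Eif2ak1 and Eif2ak4, the kinases that respond to heme and to uncharged tRNA, were at 0.0043 ± 0.11 and −0.27 ± 0.12.

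The medians over the rest of the ER machinery also lay near 0. Of 23 further ER folding and translocation genes, 0 reached an unadjusted p under 0.05 upward and 2 did downward, with a median of −0.028. The 2 were Sil1, which exchanges nucleotide on BiP, and the translocon subunit gene Sec61b. Sil1 had a mean of 8.16 in controls and 7.51 in treated cells (−0.65 ± 0.098). Sec61b, on a dim row at the 36.7th percentile of all genes, had means of 4.66 and 4.26 (−0.40 ± 0.13). Of 15 further genes of ER-associated degradation, 1 was higher, the membrane protein gene Selenos (0.27 ± 0.095), and 1 lower, the ER lectin gene Erlec1 (−0.34 ± 0.10), with a median of 0.021.

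Of 15 further regulators of the unfolded protein response, 2 reached an unadjusted p under 0.05 upward and 0 downward, with a median of −0.018. Creb3, a membrane-bound factor cleaved in the Golgi as ATF6 is, was at 8.15 and 8.09 in controls and 8.71 and 8.85 in treated cells, a difference of 0.66 ± 0.11 (limma, adjusted p = 0.126). Traf2, an adaptor that binds active IRE1, was at 0.35 ± 0.097. Among 12 heat shock genes of the cytosol and mitochondria, the small heat shock gene Cryab (0.36 ± 0.095) and Hsph1 (0.34 ± 0.095) were higher, 0 were lower, and the median was 0.13. None of the genes in these 7 lists passed adjustment over all genes in limma. With the intensity trend, 9 passed upward, Eif2ak2, Cebpg, Slc7a1, Nars, Rars, Creb3, Traf2, Hsph1 and Cryab, and 4 downward, Ddit4, Qars, Sil1 and Erlec1. Cebpg and Rars are named here for that call. With the trend, 3.68% of all genes passed upward and 3.6% downward, and 6.91% and 7.08% of those above the median level.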

How the data were processed

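Expression was measured in 4 samples on Affymetrix Mouse Gene 2.0 ST arrays; per the labels' protocols, RNA was column-extracted and biotin-labelled with a whole-transcript kit. The deposited values span 0.55 to 13.26 and were therefore taken to be log2 expression; log base, summarisation, background correction and normalization are not given in the sources used here, and the fold changes rest on this reading. Groups come from the sample titles, since the treatment text is repeated on the controls. Of 41345 rows, 23521 carried 1 symbol, 1814 several and 16010 none, and the highest-mean row per gene left 22180 genes. The table held 0 columns of other series.

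Differences come from two-sided moderated tests (limma 3.58.1, R 4.3.3; lmFit, then eBayes with no trend) on group alone, with Benjamini-Hochberg adjustment over all genes, a threshold of 0.05 and 3.07 prior degrees of freedom. The fit was tested on simulated data. No dim genes were left out, and the number of arrays limits the precision. Figures used Python 3.11.15 and matplotlib 3.10.9. Promoters are RefSeq's (GRCm38.p6); names matched 23328 rows.

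Members and lists were chosen with earlier results of these data known. By rule, every member is named, values by array are given for members with an unadjusted p under 0.05, the sensors, Atf4, Xbp1, Hspa5 and Asns, and each further list names its 2 genes of smallest p. Values by array beyond these, and Eif2ak1 and Eif2ak4, were chosen after their values were seen. Alternatives were quantile normalization, centring, level filters, an intensity trend, robust eBayes, the replicate block, row averaging, another threshold, other list definitions and leaving out each array.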

Additional observations from a re-analysis of the deposited data

How the results depend on the processing

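The separation of the ATF4 targets from the chaperone and ER-degradation genes was 0.34 to 0.36 with 1 array left out. It was 0.33 with quantile normalization and 0.40 with means in place of medians (0.38 for the ATF4 targets). Its sign held in each alternative run. Centring, the level filters, the trend, robust eBayes and the block could not alter the separation. They shift all genes alike or leave the members' fold changes unchanged. With 1 array left out the ATF4 targets' median was 0.32 to 0.36 and the other list's −0.036 to 0.0080, and centring put the latter at −0.046. The count of genes that differed was 51 with centring, 215 for genes above the 25th percentile of level, 1251 for those above the median, 1615 with the intensity trend, 18 with robust eBayes, 154 at an adjusted p under 0.10, and 0 to 0 with 1 array left out. Of the members, 1 and 9 passed under these level filters and 12 with the trend, and, in alternatives chosen after seeing the data, 1, 4, 12 and 9 with the trend without control replicate 1, control replicate 2, decitabine replicate 1 and decitabine replicate 2. At an unadjusted p under 0.05 the members counted 20 above the median level, 22 with the trend and 6 to 9 with 1 array left out. The 6 were without control replicate 1. The background at an unadjusted p under 0.05 rose too. In the main fit, 1629 of the 22180 genes were higher and 1545 lower. The fit above the median level had 1573 higher and 1689 lower of 11090 genes. The fit with the trend had 2052 higher and 2081 lower of 22180. Fewer genes and another variance model enter these fits by construction, and otherwise the cause was not tested. With the replicate number as a block, 0 genes passed. The deviations of same-numbered arrays from their group means had r = −0.018 across genes. With 2 arrays per group, this single correlation cannot show whether same-numbered samples shared a culture or batch. The labels do not say what the number means. No array file with a detection level was used, so signal over background could not be set for dim rows.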
